A study of Mus musculus with 230 samples.

Results

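The nucleus accumbens of mice with a history of cocaine self-administration, killed 1 h after a saline injection at 30 d of withdrawal (CS), was compared with that of mice with a history of saline self-administration given the same injection at the same time (SS). The libraries were chosen by the region, the self-administered solution and the challenge in their labels, which gave 5 CS and 6 SS libraries, 11 of the 230 in the series. The comparison asks whether a past of cocaine taking is still seen in accumbens RNA at 30 d, when the last injection held no cocaine. The series holds RNA sequencing of 6 brain regions from 45 mice, all male C57BL/6J bought from The Jackson Laboratory. Of the other accumbens groups, CC (7 libraries) and SC (5 libraries) received cocaine instead of saline at 30 d after cocaine or saline self-administration. C24 (8 libraries) and S24 (8 libraries) were taken after 24 h of withdrawal with no injection. All CS and SS mice shared the self-administration procedure, the 30 d of withdrawal and the injection. The labels give no age, dose or amount of cocaine taken. Each number in a title was read as 1 animal, so replicates are taken to be separate mice.

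The accumbens is the ventral part of the striatum. Most of its neurons are GABAergic projection neurons that carry either the D1 or the D2 dopamine receptor, and they receive dopamine from the ventral tegmental area and glutamate from prefrontal cortex, amygdala and hippocampus. Cocaine blocks the dopamine transporter, and activity of these inputs induces immediate early genes, whose products are transcription factors such as Fos and Egr1 and synaptic proteins such as Arc. The dissected tissue holds many cell types, and in such samples fewer cells of a type and less RNA per cell cannot be told apart.

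The 11 libraries held between 19765785 and 29662183 counts each, and 16935 genes were tested. Genes known to be higher in accumbens than in dorsal striatum (CPu) set the 11 libraries apart from the 13 CPu libraries of the same conditions: Dlk1, an imprinted Notch-family ligand, averaged 181 ± 52.4 CPM over the accumbens libraries and 15.8 ± 6.10 CPM over those of the CPu (SD), while the cannabinoid receptor Cnr1 averaged 76.9 ± 14.9 and 321 ± 85.6 CPM. Here CPM is a gene's count scaled to a common library size with TMM factors. Of the 24 markers of either kind, Gprin3, Tacr1, Dner and Nnat lay the other way, and Tmem158 and Galr1 were nearly level. 3 CS libraries stood apart. NAc-014 differed by transcript length: the shortest 20% of genes lay 0.42 log2 units above the SS mean at the median and the longest 20% lay 0.41 below it, against medians between -0.06 and 0.07 in the 10 other libraries, and 61.4% of its genes lay outside the SS range, against 19.5% to 27.8% in the other CS libraries. NAc-151 held markers of cortical glutamatergic neurons, with the vesicular glutamate transporter Slc17a7 at 256 CPM, while it was 3.70 to 42.9 CPM in the rest of the CS libraries and 4.88 to 35.9 CPM in SS libraries. NAc-111 and NAc-151 were both high in injury-response genes. Values without these libraries stand beside the genes and lists that they lead.

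**Figure D1:**
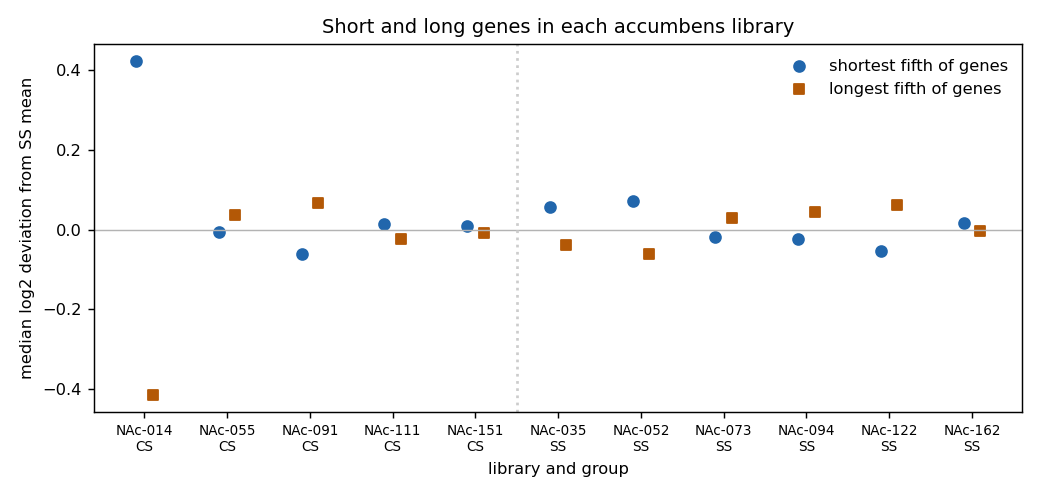
Median log2 deviation from the SS mean of the shortest (circles) and the longest (squares) 20% of the tested genes in each of the 5 CS and 6 SS accumbens libraries. NAc-014 lies at 0.42 and -0.41, and every other library lies between -0.06 and 0.07.

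No gene differed between CS and SS accumbens at an adjusted p under 0.05. In edgeR's quasi-likelihood test with Benjamini-Hochberg adjustment, 0 of 16935 genes (0%) were called, the smallest adjusted p was 0.994, and DESeq2 and limma voom also called 0. At an unadjusted p under 0.05, edgeR gave 461 genes (2.72%), DESeq2 487 and voom 452. The 461 comprised 274 genes higher in CS (1.62% of those tested) and 187 lower (1.1%), and 51.9% of all genes had a log2 fold change above 0, with a median of 0.01. The ranges of the groups did not overlap for 19 genes (0.112%), of which 12 were higher (0.0709%) and 7 lower (0.0413%) in CS. With so few libraries, ranges can separate in some genes by chance. The number to be expected by chance was not computed, so separation is given as a description only. The count at an unadjusted p under 0.05 was 395 (2.32%) without NAc-151 and 419 (2.46%) without NAc-014, and the share was 1.18% without both. The count was 1174 without NAc-091 and 836 without NAc-055, the CS libraries with the fewest genes outside the SS range, and 815 (4.74%) without NAc-111 and NAc-151. The median standard error of a log2 fold change was 0.108 over the 11635 genes with a mean of at least 5 CPM and 0.372 over the 2501 genes under 1 CPM. All values that follow describe genes that missed the adjusted threshold.

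Apobec1, which encodes the cytidine deaminase that edits apolipoprotein B mRNA, had the smallest p among the protein-coding genes with a mean of at least 1 CPM. It had 1.486, 1.705, 1.495, 2.010 and 1.710 CPM in NAc-014, NAc-055, NAc-091, NAc-111 and NAc-151 of the CS group, against 0.940, 0.863, 1.05, 1.03, 1.18 and 0.823 CPM in NAc-035, NAc-052, NAc-073, NAc-094, NAc-122 and NAc-162 of the SS group. The groups did not overlap, at a log2 fold change of 0.78 ± 0.19 (SE, unadjusted p = 0.00028 in edgeR), and the fold change was 0.83 without NAc-151 and NAc-014. Arid5a, an RNA-binding protein that stabilises inflammatory transcripts, also did not overlap, with 12.8, 13.0, 13.3, 15.9 and 19.2 CPM in CS and a lowest, median and highest value of 10.1, 10.9 and 12.5 CPM in SS. Its log2 fold change of 0.41 ± 0.12 was 0.23 without NAc-111 and NAc-151, the CS libraries where it was highest. The muscle and pericyte filament gene Des had 2.03, 1.86, 1.76, 1.33 and 1.41 CPM in CS, against 0.895 to 1.36 CPM in SS. All but NAc-111 lay above the SS range, and here the fold change was larger without NAc-111 and NAc-151 (0.70) than with them (0.52 ± 0.16). In the GENCODE M21 annotation of GRCm38, Apobec1 lies at chr6:122577792-122602444, Arid5a at chr1:36307733-36324029 and Des at chr1:75360329-75368579.

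Among the 12 genes with the smallest p that were higher in CS, Ddit3 and Ppp1r15a belong to the stress response that acts on translation. Ddit3, a transcription factor of endoplasmic reticulum stress, averaged 28.2 ± 4.80 CPM in CS and 22.9 ± 2.92 CPM in SS (SD, n = 5 and 6). Ppp1r15a, the phosphatase subunit that ends the block of translation under stress, averaged 17.9 ± 4.16 CPM in CS and 13.9 ± 1.55 CPM in SS. Ifrd1 averaged 33.4 ± 4.22 CPM in CS and 26.6 ± 3.45 CPM in SS. Ppp1r15a and Ifrd1 were above the SS range in 4 of 5 CS libraries and Ddit3 in 3, and all were highest in NAc-014. The log2 fold changes of Ddit3, Ppp1r15a and Ifrd1 (0.30, 0.37 and 0.33) were 0.23, 0.23 and 0.26 without it. Cited2, a co-regulator that binds CBP and p300, had 58.8, 49.4, 41.4, 56.0 and 59.0 CPM in CS, against 33.6, 43.1, 41.0, 34.1, 45.5 and 36.6 CPM in SS. Its NAc-091 value lay within the SS range and the other CS values above it (log2 fold change 0.44 ± 0.14, 0.33 without NAc-151 and NAc-014). Rflnb, a filamin-binding regulator of actin, had 9.61 to 13.3 CPM in CS and 7.01 to 11.2 CPM in SS (0.48 ± 0.15). The vessel gene Rasip1 had 12.1 to 16.5 CPM in CS and 8.60 to 12.5 CPM in SS (0.36 ± 0.11, and 0.23 without NAc-111 and NAc-151), but 34.6% of its 50-base stretches also occur in the overlapping gene Izumo1, so its counts are uncertain.

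The other named higher genes were set by NAc-151 and NAc-111. The secreted metalloprotease Adamts1 had 37.7 CPM in NAc-151 and 7.53 to 15.4 CPM in the other CS libraries, against 5.77 to 11.8 CPM in SS, and its log2 fold change of 1.03 ± 0.30 was 0.48 without NAc-151. Grrp1 had 5.43 CPM in NAc-111 and 10.1 CPM in NAc-151, with 1.98 to 2.48 CPM in the other CS libraries and 1.64 to 3.94 CPM in SS. Its fold change of 1.04 ± 0.33 was 0.00 without these libraries.

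Of the genes lower in CS, Mmp28 had the smallest p. This secreted metalloprotease (chr11:83440768-83463071) had 1.288, 1.498, 1.907, 1.728 and 1.216 CPM in CS, against 2.28, 2.36, 2.20, 2.29, 2.55 and 2.36 CPM in SS. The groups did not overlap, and the log2 fold change was -0.61 ± 0.17 with all libraries (unadjusted p = 0.00104 in edgeR) and -0.44 without NAc-151 and NAc-014. The kinase gene Vrk2 also did not overlap, with 0.523 to 0.941 CPM in CS and 0.985 to 1.73 CPM in SS (-0.66 ± 0.22), and 12.2% of its 50-base stretches recur in the neighbouring gene Fancl. Zbtb46, a zinc finger factor known from dendritic cells, had 6.03 to 10.1 CPM in CS and 9.22 to 12.4 CPM in SS (-0.42 ± 0.13, and -0.26 without NAc-111 and NAc-151). Mid1, a ubiquitin ligase gene on the X chromosome, averaged 14.3 ± 2.76 CPM in CS and 26.4 ± 16.7 CPM in SS, where NAc-122 had 60.2 CPM and the other SS libraries 17.7 to 21.6 CPM. Only NAc-151 of the CS group lay within the SS range of Mid1, and its fold change of -0.88 was -0.46 without NAc-122. Part of the sequence of Mid1 recurs in the pseudogene Mid1-ps1 (28.7% of its 50-base stretches).

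The remaining lower genes with a small p had fold changes of modest size. Spred3, an inhibitor of Ras signalling, averaged 56.1 ± 9.53 CPM in CS and 69.3 ± 5.53 CPM in SS (log2 fold change -0.30 ± 0.11). Pxdn, the peroxidase that cross-links collagen IV, averaged 73.8 ± 10.6 CPM in CS and 87.8 ± 8.42 CPM in SS (-0.25 ± 0.09), and Phf24 averaged 400 ± 47.7 and 467 ± 33.2 CPM (-0.22 ± 0.08). All of these were lowest in NAc-014, without which the fold changes of Spred3, Pxdn and Phf24 were -0.22, -0.18 and -0.17. Fam120b, a coactivator of PPAR gamma, was the tightest, with 86.36 to 112.6 CPM in CS and 109.97 to 116.7 CPM in SS, and its fold change of -0.16 ± 0.06 was -0.06 without NAc-151 and NAc-014. Sgk2, a kinase of the glucocorticoid-regulated family, had 1.03 to 2.23 CPM in CS and 1.29 to 3.04 CPM in SS, and Btbd16 had 0.836 to 1.64 and 1.32 to 2.33 CPM. Their fold changes of -0.62 and -0.53 were -0.32 and -0.28 without NAc-111 and NAc-151. For Ap4b1 (log2 fold change -0.19 ± 0.07), a subunit of an adaptor complex of vesicle transport, and Pcdhga2 (-0.42 ± 0.15, and -0.27 without NAc-014), a clustered protocadherin, 74.9% and 44.8% of the 50-base stretches occur in another gene, and how their reads were assigned is not given in the sources used here.

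Of the other genes whose groups did not overlap, 6 are named here, chosen after their values were seen. Fabp7, the fatty acid binding protein of astroglia, averaged 14.96 ± 4.08 CPM in CS and 11.5 ± 0.518 CPM in SS. Its log2 fold change was 0.38 ± 0.23 (unadjusted p = 0.106 in edgeR), so it missed the unadjusted threshold as well. Sytl1, a Rab27 effector of vesicle traffic, averaged 1.33 ± 0.304 CPM in CS and 0.821 ± 0.267 CPM in SS, and Fancf, a subunit of the Fanconi anaemia DNA repair complex, averaged 2.19 ± 0.198 and 1.70 ± 0.188 CPM. On the lower side, Garnl3 averaged 34.1 ± 2.82 CPM in CS and 40.5 ± 2.56 CPM in SS, and Rnf43, a ubiquitin ligase that removes Wnt receptors, averaged 3.28 ± 0.322 and 4.21 ± 0.266 CPM. Tll2, a tolloid-like metalloprotease, averaged 0.229 ± 0.131 CPM in CS and 0.510 ± 0.0866 CPM in SS. These values lie under 1 CPM, where few reads carry the log2 fold change of -1.10 ± 0.36.

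**Figure D2:**
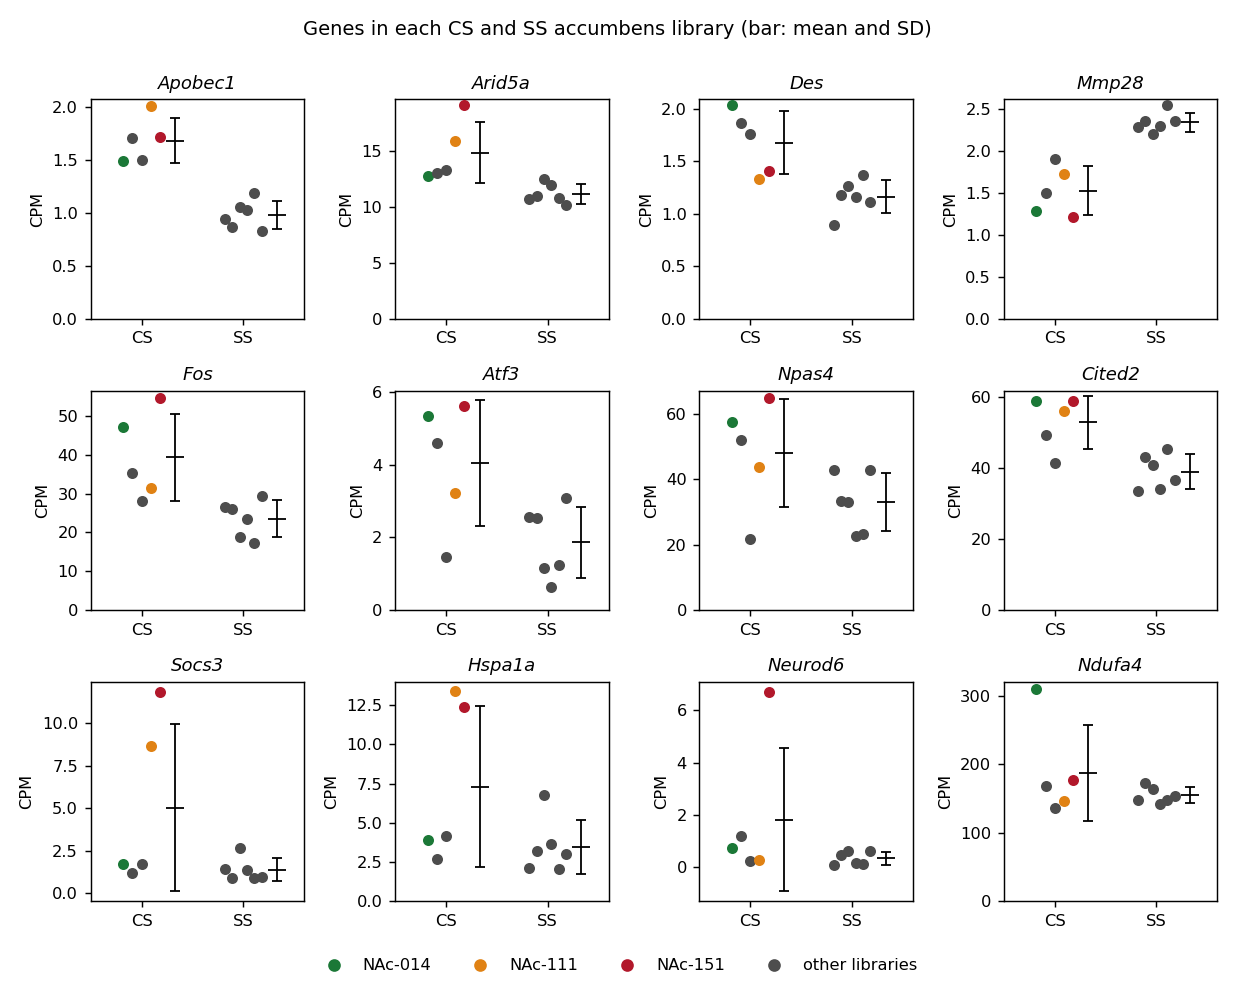
CPM of 12 genes in each CS (left) and SS (right) accumbens library, with the mean and SD beside the points and NAc-014, NAc-111 and NAc-151 in colour. The groups of Apobec1, Arid5a and Mmp28 do not overlap, Socs3 and Hspa1a are highest in NAc-111 and NAc-151, Neurod6 in NAc-151 and Ndufa4 in NAc-014.

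The immediate early genes were the list with the most members, by number, at an unadjusted p under 0.05. By share of the members tested, the injury-response list described below was higher in the fit to all accumbens libraries. Of 39 tested, 37 were higher in CS, 13 of them at an unadjusted p under 0.05 (1.62% of all genes), with a median log2 fold change of 0.31 against 0.01 over all genes. None was called after adjustment. These counts depend on the fit. In the edgeR fit of the 11 CS and SS libraries alone, 14 immediate early genes had an unadjusted p under 0.05, beside 294 over all genes. There the counts were 9 for interferon-induced and 2 for injury-response genes. The upstream sequence of 6 of 9 members of the activity and stress lists whose windows were read is shown, because these genes are read as a record of recent signalling, through the cyclic AMP response element and the heat shock element. Jun is shown as one with no TGACG. The windows run from 250 bases before to 50 bases after the start of transcription in RefSeq (GRCm38.p6): Fos (chr12:85473640-85473939, plus strand), Fosb (chr7:19309996-19310295, minus strand), Atf3 (chr1:191183284-191183583, minus strand), Npas4 (chr19:4989922-4990221, minus strand), Jun (chr4:95052173-95052472, minus strand) and Hspa1a (chr17:34972107-34972406, minus strand). Capitals mark TGACG, the core of the cyclic AMP response element, or its reverse complement in the first 4 sequences, and GAANNTTC, a pair of heat shock element units, in the last 2.
Fos: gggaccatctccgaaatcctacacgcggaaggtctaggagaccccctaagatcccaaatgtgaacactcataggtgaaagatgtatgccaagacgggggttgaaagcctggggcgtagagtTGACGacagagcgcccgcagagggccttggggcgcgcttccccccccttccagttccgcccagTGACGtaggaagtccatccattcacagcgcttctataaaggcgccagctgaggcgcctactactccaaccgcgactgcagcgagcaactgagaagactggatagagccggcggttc
Fosb: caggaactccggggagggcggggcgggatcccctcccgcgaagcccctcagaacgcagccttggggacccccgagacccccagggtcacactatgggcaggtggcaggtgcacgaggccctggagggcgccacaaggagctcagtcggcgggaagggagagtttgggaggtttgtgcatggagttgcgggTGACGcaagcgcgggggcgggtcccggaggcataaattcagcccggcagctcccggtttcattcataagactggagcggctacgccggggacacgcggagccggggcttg
Atf3: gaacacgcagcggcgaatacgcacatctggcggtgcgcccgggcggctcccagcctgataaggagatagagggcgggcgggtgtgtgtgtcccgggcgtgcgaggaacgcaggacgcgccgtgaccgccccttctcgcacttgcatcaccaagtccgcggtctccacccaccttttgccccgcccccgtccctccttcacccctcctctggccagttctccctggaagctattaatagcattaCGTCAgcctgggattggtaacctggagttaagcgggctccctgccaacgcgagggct
Npas4: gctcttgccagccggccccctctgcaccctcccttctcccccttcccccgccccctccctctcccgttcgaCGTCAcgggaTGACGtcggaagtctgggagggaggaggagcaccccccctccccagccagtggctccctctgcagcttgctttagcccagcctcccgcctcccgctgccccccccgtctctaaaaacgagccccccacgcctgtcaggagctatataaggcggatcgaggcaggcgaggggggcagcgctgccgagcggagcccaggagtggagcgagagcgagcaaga
Jun: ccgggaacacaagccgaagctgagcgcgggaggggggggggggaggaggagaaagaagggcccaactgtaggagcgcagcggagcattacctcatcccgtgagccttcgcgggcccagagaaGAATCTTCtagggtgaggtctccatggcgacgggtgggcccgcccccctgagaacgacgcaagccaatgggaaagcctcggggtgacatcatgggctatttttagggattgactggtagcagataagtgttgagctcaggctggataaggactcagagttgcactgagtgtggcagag
Hspa1a: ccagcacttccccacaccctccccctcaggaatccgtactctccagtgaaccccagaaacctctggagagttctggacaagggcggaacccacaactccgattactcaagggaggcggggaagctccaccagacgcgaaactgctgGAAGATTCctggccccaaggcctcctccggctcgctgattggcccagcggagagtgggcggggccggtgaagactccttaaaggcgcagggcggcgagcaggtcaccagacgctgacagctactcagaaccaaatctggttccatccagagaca

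The motifs TGACGTCA, TGACG, GAANNTTC and the serum response element were searched on both strands, and TGACG lies within TGACGTCA. The serum response element was found in none of the windows read, and sequence outside the windows was not searched. TGACG begins at positions -129 and -66 from the start of Fos, -60 from that of Fosb, -7 from that of Atf3, and -179 and -169 from that of Npas4. GAANNTTC begins at position -128 from the start of Jun, which holds no TGACG, and at -104 from the starts of Hspa1a and Hspa1b, whose windows are identical at 296 of 300 bases. Of the windows not printed, that of Btg2 holds the full TGACGTCA at -166, and that of Hspe1 holds TGACG at -36 and GAANNTTC at -84. The end of the Btg2 window was not found in a GENCODE transcript of that gene, unlike those of the other windows, so its position is uncertain. Of 32851 RefSeq promoters of this length, 20.8% hold TGACG, 7.86% GAANNTTC, 1.79% the full TGACGTCA and 1.63% the serum response element. A match describes the letters and not a bound site.

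Fos, which pairs with Jun proteins in the factor AP-1, had 47.2, 35.3, 28.2, 31.5 and 54.6 CPM in CS, against 26.7, 26.2, 18.8, 23.4, 17.2 and 29.3 CPM in SS. All CS libraries but NAc-091 lay above the SS range. Its log2 fold change was 0.74 ± 0.29 (unadjusted p = 0.0162 in edgeR) with all libraries, 0.59 without NAc-151, 0.66 without NAc-014 and 0.42 without both. Atf3, a stress-induced factor of the same structural class, had 5.35, 4.60, 1.46, 3.22 and 5.63 CPM in CS, against 2.55, 2.54, 1.15, 0.631, 1.23 and 3.08 CPM in SS. Here too only NAc-091 of the CS group fell inside the SS range (1.11 ± 0.37, 0.71 without NAc-151 and NAc-014). Btg2, an inhibitor of cell division, had 29.0, 18.4, 20.3, 24.4 and 28.1 CPM in CS and 13.9 to 19.3 CPM in SS, with NAc-055 inside the SS range (0.54 ± 0.19, and 0.35 without NAc-151 and NAc-014). Jun had 25.9 to 53.6 CPM in CS and 24.3 to 31.7 CPM in SS (0.38 ± 0.13). Its fold change was 0.20 without NAc-151 and 0.09 without NAc-151 and NAc-014.

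Genes induced by neuronal activity and synaptic input gave the same picture with wider spread. Npas4, a transcription factor restricted to neurons, had 57.6, 52.1, 21.8, 43.6 and 64.9 CPM in CS, against 42.7, 33.4, 33.1, 22.8, 23.3 and 42.98 CPM in SS (log2 fold change 0.54 ± 0.25). Arc, whose protein regulates AMPA receptor removal from synapses, had 183.4, 180.7, 88.15, 126.5 and 288.7 CPM in CS, against 135, 136, 112, 63.8, 75.4 and 177 CPM in SS (0.57 ± 0.31). Fosb, the source of the long-lived protein delta-FosB, had 30.7 to 60.9 CPM in CS and 25.1 to 46.1 CPM in SS (0.31 ± 0.19). In all 3 genes NAc-151 was the highest and NAc-091 the lowest CS library, and the groups overlapped. Without NAc-151 the fold changes of Npas4, Arc and Fosb were 0.41, 0.31 and 0.18, and without NAc-151 and NAc-014 they were 0.24, 0.17 and 0.06. Egr1 had 227 to 443 CPM in CS and 209 to 368 CPM in SS, and Nr4a1 had 92.4 to 188 and 70.3 to 151.4 CPM. The members lower in CS were Egr3 (34.9 to 80.2 CPM in CS, 45.8 to 83.6 CPM in SS) and Fosl1 (4.86 to 7.37 and 6.10 to 7.52 CPM). Nr4a2 differed from its relatives: it had 31.1 CPM in NAc-151, 2.65 to 6.61 CPM in the other CS libraries and 2.32 to 4.62 CPM in SS, so its fold change of 1.73 ± 0.82 was 0.50 without NAc-151.

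Counted by library, 33 of the 39 immediate early genes were above the highest SS value in NAc-151, 26 in NAc-014, 18 in NAc-055, 10 in NAc-111 and 3 in NAc-091. Of all 16935 genes, 2380, 5204, 1741, 1961 and 1738 were above it in the same order. The mean log2 difference of the list from the SS mean was 0.76, 0.51, 0.37, 0.10 and -0.12 in those libraries, while the SS libraries ran from -0.40 (NAc-094) to 0.29 (NAc-162), so the groups overlapped. The median fold change of 0.31 lay between 0.21 (without NAc-151) and 0.42 (without NAc-091) when 1 library was left out. The number of members at an unadjusted p under 0.05 lay between 3 and 21. It was 3 without NAc-151 (2.32% of all genes), 7 without NAc-094 (397 over all genes) and 21 without NAc-091 (6.89%). Without NAc-151 and NAc-014 together, 28 of 39 were higher, the median was 0.12 and 0 members had an unadjusted p under 0.05 (1.18% of all genes). Without NAc-111 and NAc-151 the median was 0.28, with 3 members at that p (4.74% of all genes). In the SS group NAc-094 and NAc-122 were low, with 63.8 and 75.4 CPM of Arc, and NAc-094 was also low in D1 and D2 neuron genes (160 CPM of Drd1 against 242 to 328 CPM in the other SS libraries). Without NAc-094 the median of the immediate early genes was 0.28. The part of its low D1 and D2 neuron genes in the result was not tested.

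Slower effectors of activity leaned less. With a median log2 fold change of 0.15 that was 0.04 without NAc-151, 19 of 25 tested were higher in CS. Of these, 2 had an unadjusted p under 0.05 (1.62% of all genes). Those 2 were Gpr3, a receptor that activates adenylyl cyclase (4.75 to 9.92 CPM in CS, 3.67 to 5.69 CPM in SS), and Crem, a factor that binds the cyclic AMP response element (11.26 to 20.66 and 11.01 to 15.39 CPM). The fold change of Gpr3 (0.45) was 0.24 without NAc-151, and that of Crem (0.32) was 0.21 without NAc-014. Bdnf, the neurotrophin implicated in cocaine seeking after withdrawal, had 0.793, 1.70, 0.785, 0.643 and 6.88 CPM in CS, against 0.403, 1.23, 0.525, 0.698, 1.14 and 0.537 CPM in SS. Only NAc-151 and NAc-055 were above the SS range, and the fold change of 1.53 ± 0.78 was 0.36 without NAc-151. In the same library the cortical glutamatergic marker Neurod6 was at 6.69 CPM, with 0.224 to 1.19 CPM in the rest of the CS group and up to 0.630 CPM in SS. The part of those cells in the Bdnf value was not tested.

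**Figure D3:**
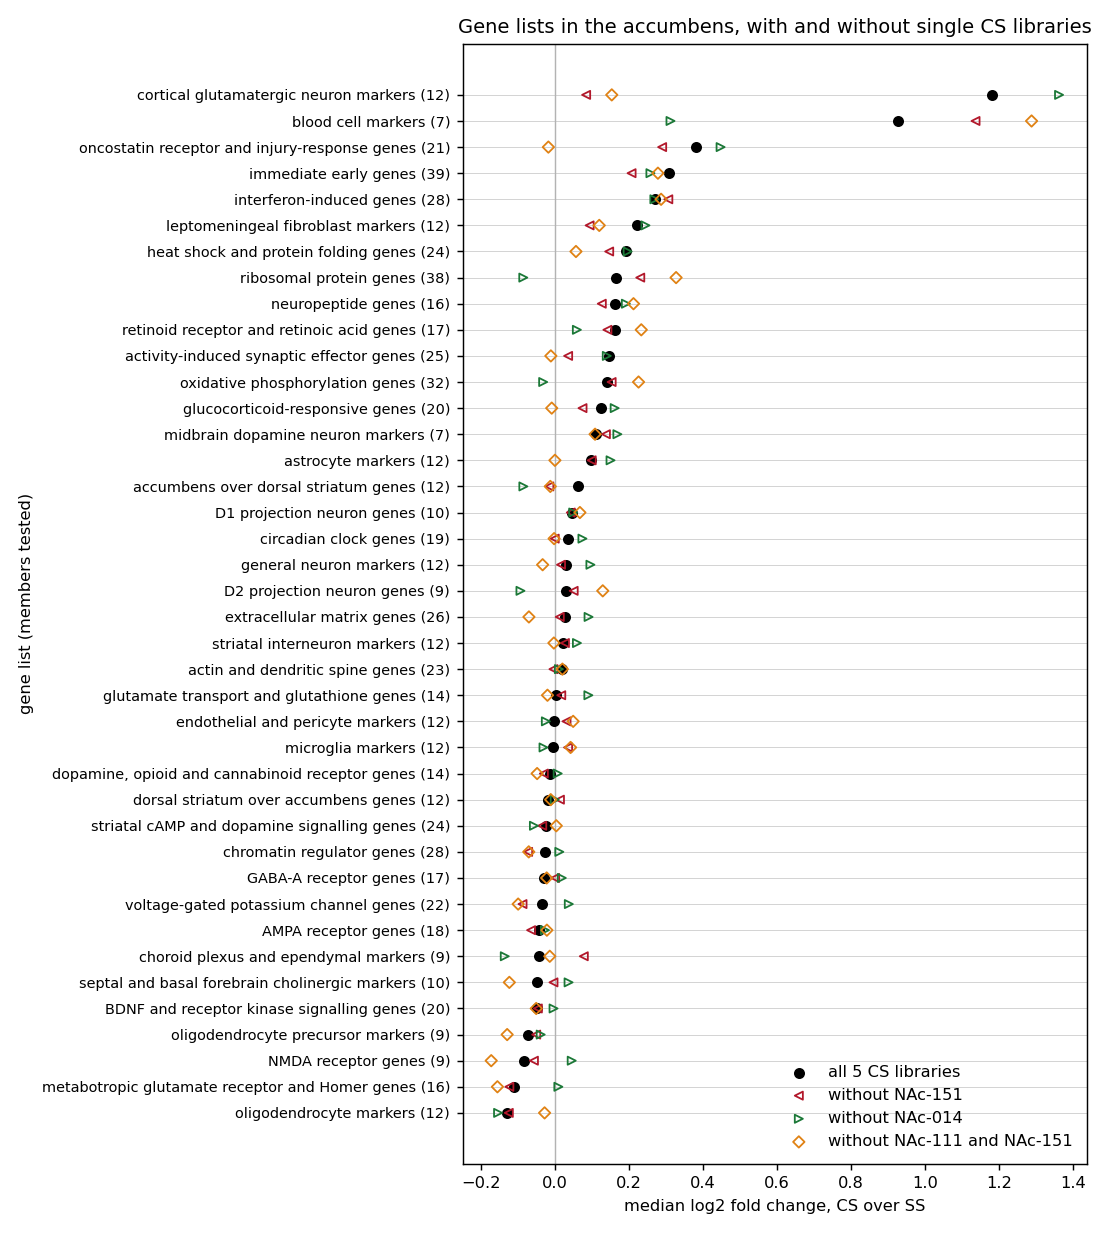
Median log2 fold change, CS over SS, of each of the 40 gene lists (members tested in brackets) with all 5 CS libraries (filled circles), without NAc-151, without NAc-014 and without NAc-111 and NAc-151 (open symbols). Cortical glutamatergic markers are at 1.18 with all libraries and at 0.08 without NAc-151, injury-response genes are at 0.38 and at -0.02 without NAc-111 and NAc-151, and interferon-induced genes stay between 0.27 and 0.31.

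Injury-response genes, the targets of the oncostatin and interleukin-6 receptors in reactive astrocytes and vessels, were high in 2 CS mice. Of 21 tested, 19 were higher in CS, 9 at an unadjusted p under 0.05 (1.62% of all genes), and their median was 0.38. In the edgeR fit of the 11 CS and SS libraries alone, 2 members were at that p, beside 294 over all genes. Socs3, the feedback inhibitor of this signalling, had 1.68, 1.19, 1.68, 8.68 and 11.8 CPM in CS, against 1.43, 0.908, 2.68, 1.33, 0.910 and 0.931 CPM in SS. The high values were those of NAc-111 and NAc-151 (log2 fold change 1.90 ± 0.57, 0.18 without both). Lcn2, a secreted acute-phase protein, had 12.88, 17.98, 9.794, 42.49 and 57.66 CPM in CS and 7.12, 9.40, 31.3, 9.37, 11.6 and 4.76 CPM in SS (log2 fold change 1.22, and 0.15 without NAc-111 and NAc-151). The SS library NAc-073 was high as well, also for the metalloreductase Steap4, which had 3.67 CPM there, 5.11 and 6.92 CPM in NAc-111 and NAc-151, and 0.286 to 1.65 CPM in all others. The oncostatin receptor Osmr had 5.70, 8.21, 8.11, 15.2 and 23.8 CPM in CS, against 4.25 to 13.0 CPM in SS. Without NAc-111 and NAc-151, 10 of 21 members were higher and the median was -0.02. With 1 library left out, the count at an unadjusted p under 0.05 was 1 without NAc-151, 2 without NAc-111, 3 without NAc-162, 4 without NAc-035 and 5 without NAc-052, but 10 without NAc-073 and 11 without NAc-014. It was 0 without NAc-111 and NAc-151 together. Over all genes the counts were 395, 609, 423, 358, 479, 475 and 419 in the same order of single libraries, and 815 without that pair.

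Heat shock and chaperone genes followed the same libraries. Of 24 tested, 22 were higher in CS, 7 at an unadjusted p under 0.05 (1.62% of all genes), with a median log2 fold change of 0.19 that was 0.06 without NAc-111 and NAc-151. Hspa1a had 3.91, 2.69, 4.15, 13.4 and 12.4 CPM in CS, against 2.10, 3.22, 6.77, 3.69, 2.09 and 3.04 CPM in SS, and Hspa1b had 8.37, 6.82, 9.64, 36.4 and 31.8 CPM in CS, against 5.005 to 15.74 CPM in SS. The highest CS values were those of NAc-111 and NAc-151, and the highest SS value was that of NAc-073. Without NAc-111 and NAc-151 the fold changes of Hspa1a and Hspa1b (1.08 and 1.07) were 0.05 and -0.10. These genes encode the inducible Hsp70 proteins, and 66.3% and 62.3% of their 50-base stretches are shared between them, so the split of reads between the pair is uncertain. The endoplasmic reticulum chaperone Hspa5 had 524, 473, 431, 617 and 694 CPM in CS and 365 to 535 CPM in SS. The mitochondrial chaperonins Hspe1 (53.8 to 95.3 CPM in CS, 48.5 to 64.7 CPM in SS) and Hspd1 (181.7 to 228.1 and 168.1 to 200.6 CPM) were high in NAc-014 as well, and the fold change of Hspe1 (0.33) was 0.21 without it. The number of members at an unadjusted p under 0.05 was 0 without NAc-111, 1 without NAc-151, 2 without NAc-122, 3 without NAc-035 and 4 without NAc-052, but 9 without NAc-162, 10 without NAc-073, 11 without NAc-091 and 13 without NAc-055. Over all genes the share at that p was 6.89% without NAc-091 and 4.9% without NAc-055, against 2.72% with every library. It was 3.58% without NAc-111 and 2.32% without NAc-151.

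Genes induced by glucocorticoids leaned the same way in the same pair of libraries, with 16 of 20 higher, a median of 0.13, and -0.01 without NAc-111 and NAc-151. Fkbp5, the chaperone of the glucocorticoid receptor, had 62.2, 58.6, 55.7, 78.8 and 84.6 CPM in CS, against 54.2 to 68.2 CPM in SS. Mt2, a metal-binding stress protein, had 128 CPM in NAc-014 and 62.8 to 99.0 CPM in the other CS libraries, against 63.4 to 76.4 CPM in SS (log2 fold change 0.35, and 0.18 without NAc-014), and 45.8% of its 50-base stretches occur in another gene.

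The same mice were high in other regions. Socs3 in mouse-111 and mouse-151 was 10.2 and 13.6 CPM in the basolateral amygdala (BLA) and 10.82 and 10.65 CPM in the CPu. It was 11.9 and 14.9 CPM in prefrontal cortex (PFC) and 9.46 and 7.37 CPM in ventral hippocampus (vHipp). In all 4 regions both mice were above every other CS and SS mouse, whose highest values were 4.21, 3.68, 6.01 and 6.12 CPM in the same order. Osmr and Lcn2 were above all others in both mice in 3 of the 4 regions. Fos, Arc and Npas4 were so in 0 of 4. Slc17a7 was high in the CPu of mouse-151 as well (147.8 CPM, with the remaining CS and SS mice at 4.29 to 29.9 CPM), so markers of cortical neurons were high in both striatal samples of that animal.

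**Figure D4:**
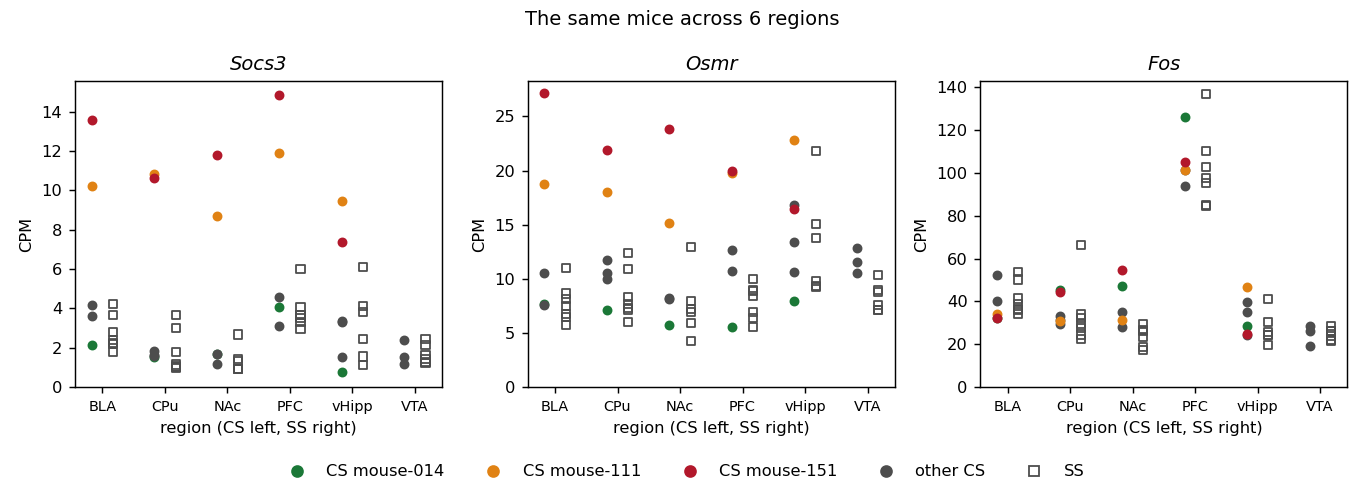
CPM of Socs3, Osmr and Fos in each CS (filled, left) and SS (open, right) mouse in 6 regions, with mouse-014, mouse-111 and mouse-151 in colour. Socs3 of mouse-111 and mouse-151 lies above all other mice in BLA, CPu, PFC and vHipp, while their Fos values do not stand out together in those 4 regions.

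Interferon-induced genes were higher in CS in small steps that did not rest on those mice. Of 28 tested, 25 were higher, 0 at an unadjusted p under 0.05, with a median log2 fold change of 0.27 that lay between 0.21 and 0.34 when any 1 library was left out. The edgeR fit of the 11 CS and SS libraries alone gave 9 members at that p, beside 294 over all genes. The median was 0.28 without NAc-151 and NAc-014 and 0.29 without NAc-111 and NAc-151. Bst2, the membrane protein that tethers budding viruses, had 2.92, 2.38, 2.58, 2.17 and 2.93 CPM in CS, against 1.97, 2.13, 1.78, 1.66, 1.64 and 1.93 CPM in SS, and the groups did not overlap (log2 fold change 0.49 ± 0.28). The GTPase Igtp had 3.77, 2.53, 6.13, 3.46 and 4.11 CPM in CS, against 1.93 to 3.11 CPM in SS (0.71 ± 0.36). B2m, the light chain of class I antigen presentation, had 53.4 to 84.8 CPM in CS and 37.8 to 62.8 CPM in SS (0.37 ± 0.20). Gbp4 was led by 1 library, with 9.12 CPM in NAc-091, 1.34 to 2.33 CPM in the other CS libraries and 1.16 to 2.52 CPM in SS. NAc-091 had 17 of the 28 genes above the SS range, NAc-151 13, NAc-014 10, NAc-111 8 and NAc-055 1. Of all 16935 genes, 1738, 2380, 5204, 1961 and 1741 lay above it in the same order.

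Genes of the receptors and signalling proteins that define accumbens projection neurons were close to level. The dopamine receptor gene Drd1 had 284.8, 307.2, 213.6, 239.9 and 285.4 CPM in CS, against 242, 297, 311, 160, 256 and 328 CPM in SS, with means of 266 ± 38.3 and 266 ± 61.2 CPM and a log2 fold change of 0.00 ± 0.14. Drd2 averaged 114.5 ± 26.8 CPM in CS and 120 ± 30.7 CPM in SS (-0.06 ± 0.16). In both genes all CS values lay within the SS range. Of 10 genes of D1 neurons, 8 were higher, with a median of 0.05, and Ebf1, a factor of D1 neuron development, was lower (7.48 to 11.8 CPM in CS, 8.96 to 15.9 CPM in SS, log2 fold change -0.34 ± 0.16). Of 9 genes of D2 neurons, 6 were higher, with a median of 0.03, but without NAc-014 only 2 were higher and the median was -0.09. Of 24 genes of cyclic AMP and dopamine signalling, 8 were higher, with a median of -0.03 and 0 at an unadjusted p under 0.05. The 14 dopamine, opioid and cannabinoid receptor and enzyme genes had a median of -0.01, and the mu opioid receptor Oprm1 was at 1.24 CPM in NAc-014, 9.004 to 10.88 CPM in the other CS libraries and 7.87 to 13.4 CPM in SS.

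Glutamate receptor genes lay slightly lower with all libraries, and without NAc-014 the medians of 2 of their 3 lists lay above 0. Gria1, the AMPA receptor subunit studied in cocaine seeking, had 572, 670, 624, 576 and 576 CPM in CS, against 686, 639, 659, 630, 593 and 665 CPM in SS. NAc-014, NAc-111 and NAc-151 lay below the SS range, and the log2 fold change was -0.10 ± 0.07. Of 18 AMPA receptor and auxiliary genes 6 were higher (median -0.04), and of 9 NMDA receptor genes 4 (median -0.08). Without NAc-014 the AMPA list had 7 of 18 higher with a median of -0.03, and the NMDA list 5 of 9 with a median of 0.05. The NMDA receptor subunit Grin1 had 255 to 317 CPM in CS and 247 to 376 CPM in SS. Of 16 metabotropic receptor and Homer genes 2 were higher, with a median of -0.11, and without NAc-014 9 were higher with a median of 0.01. Shank2, a scaffold of the postsynaptic density, had 111.1 CPM in NAc-014, 209.3 to 218.2 CPM in the other CS libraries and 190.5 to 228.3 CPM in SS. None of the genes in these 3 lists, nor of the 17 GABA-A receptor genes (median -0.03, and 0.02 without NAc-014), had an unadjusted p under 0.05. Of 22 potassium channel genes the only one that did was the channel-interacting protein Kcnip1 (22.7 to 28.6 CPM in CS, 14.7 to 23.6 CPM in SS, log2 fold change 0.37 ± 0.17).

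Of 16 neuropeptide genes 15 were higher with all libraries, with a median log2 fold change of 0.16. Without NAc-014, 9 were higher with a median of 0.19, and without NAc-151 and NAc-014, 10 with a median of 0.05. Cartpt, the peptide precursor first named for its induction by cocaine and amphetamine, had 81.1, 52.3, 31.5, 44.6 and 48.4 CPM in CS, against 48.7, 50.9, 25.8, 19.4, 26.5 and 41.8 CPM in SS. The groups overlapped, with NAc-014 and NAc-055 above the SS range (log2 fold change 0.54 ± 0.23, unadjusted p = 0.0269 in edgeR, and 0.31 without NAc-014). Tac1, the precursor of substance P in D1 neurons, had 217.6 to 480.8 CPM in CS and 115.03 to 358.2 CPM in SS (0.38 ± 0.21). Pdyn and Penk, the dynorphin and enkephalin precursors, had fold changes of 0.03 ± 0.14 and 0.09 ± 0.16. The cortical peptide gene Cck had 31.9 CPM in NAc-151, 2.77 to 7.70 CPM in the other CS libraries and 3.804 to 6.810 CPM in SS.

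Retinoid genes were higher in 13 of 17, with a median of 0.16 that was 0.06 without NAc-014. Rxra, a retinoid X receptor that pairs with many nuclear receptors, had 47.7 to 57.0 CPM in CS and 48.0 to 60.1 CPM in SS (log2 fold change -0.09 ± 0.10). Reln, the matrix glycoprotein of neuronal positioning, had 61.8, 89.1, 81.2, 49.7 and 92.2 CPM in CS, against 104, 82.3, 103, 100, 80.4 and 156 CPM in SS (-0.48 ± 0.21). The clock output factor Nfil3 had 7.29 to 9.71 CPM in CS and 4.828 to 8.503 CPM in SS (0.36 ± 0.13), and the 19 clock genes had a median of 0.04. Lists of chromatin regulators (28 genes), actin and spine genes (23), extracellular matrix (26) and Bdnf signalling (20) had medians between -0.05 and 0.03 and 0 members at an unadjusted p under 0.05. Slc3a2, the heavy chain of the cystine and amino acid exchangers, had 85.72 to 112.97 CPM in CS and 82.3 to 93.6 CPM in SS (0.15 ± 0.07, and 0.01 without NAc-151 and NAc-014) among 14 glutamate transport and glutathione genes with a median of 0.00.

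The lists of short, abundant transcripts were set by NAc-014. All 38 ribosomal protein genes and all 32 oxidative phosphorylation genes were higher in CS, with medians of 0.17 and 0.14. In NAc-014, 37 of the 38 and 32 of the 32 lay above the SS range, as did 5204 of all 16935 genes. The medians without NAc-014 were -0.09 and -0.03. Ndufa4, a subunit of the respiratory chain, had 310, 168, 137, 146 and 177 CPM in CS, against 141 to 173 CPM in SS, and its log2 fold change of 0.28 ± 0.13 was 0.02 without NAc-014. In NAc-091, 16 of the 32 respiratory chain genes lay below the SS range, as did 1788 of all 16935 genes.

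Markers of other cell types moved with single libraries. Red cell and other blood markers were higher for 7 of 7, with a median log2 fold change of 0.93 that was 0.31 without NAc-014, and their summed level was 42.7 to 304 CPM in CS, highest in NAc-014, against 31.6 to 82.0 CPM in SS. Of 12 cortical glutamatergic markers 11 were higher (median 1.18, and 0.08 without NAc-151), with summed levels of 355 to 814 CPM in CS and 398 to 574 CPM in SS. All 12 leptomeningeal fibroblast markers were higher, by a median of 0.22 that was 0.09 without NAc-151, with sums of 56.1 to 92.6 CPM in CS and 53.9 to 64.9 CPM in SS. Among them Ogn, a small matrix proteoglycan, had 2.23, 2.79, 2.69, 3.10 and 5.02 CPM in CS, against 1.30, 2.13, 2.20, 2.06, 1.96 and 1.97 CPM in SS, and did not overlap. Oligodendrocyte markers were lower for 11 of 12 (median -0.13, -0.07 without NAc-111 and -0.03 without NAc-094), with sums of 5020 to 6536 CPM in CS and 4482 to 8793 CPM in SS, and Opalin, a myelin protein, was lowest in NAc-111 (8.84 CPM). Astrocyte markers (10 of 12 higher, median 0.10, and 0.00 without NAc-111 and NAc-151), microglia markers (5 of 12, median -0.01) and endothelial and pericyte markers (6 of 12, median 0.00) were near level. Outside the cortical list, no marker of these lists had an unadjusted p under 0.05. The part of these cells in the results above was not tested.

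The difference between accumbens and CPu in the CS against SS effect was tested over 17308 genes in 1 fit to the libraries of both regions. No gene differed: edgeR called 0 (0%), with 607 (3.51%) at an unadjusted p under 0.05, and DESeq2 and voom also called 0. With the mouse as a block, which pairs the regions of each animal, 0 genes were called and 253 had an unadjusted p under 0.05. Immediate early genes had median fold changes (log2) of 0.31 in the accumbens and 0.01 in the CPu, -0.01 in the BLA, -0.02 in the PFC, -0.04 in the vHipp and 0.00 in the ventral tegmental area. Fos had fold changes of 0.74 in the accumbens and 0.08 in the CPu, a difference of 0.66 (adjusted p = 0.911 in edgeR), and Atf3 of 1.11 and -0.05, a difference of 1.17 with the same adjusted p. For Apobec1 the values were 0.78 and 0.05, and for Mmp28 -0.61 and -0.03. Atf3, Apobec1 and Mmp28 were named for their p in the accumbens, so smaller CPu values can follow from that choice. The CPu groups also held SS mouse-011 and mouse-143 and CS mouse-072, and lacked SS mouse-094. In the CPu mouse-011 had 66.2 CPM of Fos, against 22.4 to 33.9 CPM in the other SS mice. Its immediate early gene mean, 0.363 log2 units above the SS mean, was the highest there. Without mouse-011 the difference between the regions was called for 0 genes in edgeR, with 274 at an unadjusted p under 0.05. Leaving out any 1 CS or SS mouse gave 0 calls and 222 to 1869 genes at that p. The part of mouse-011 in the CPu fold changes given here was not tested. Injury-response genes had medians of 0.38 in the accumbens, 0.35 in the CPu, 0.49 in the BLA and 0.45 in the PFC, but 0.03 in the vHipp.

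Cocaine history was also compared in accumbens libraries of other mice, none of them shared with CS and SS. After a cocaine injection at 30 d, CC against SC, edgeR called 2 genes (0.0118%), DESeq2 1 and voom 0, and edgeR called 0 with no filter on low counts. With the filter, 1244 genes (7.35%) had an unadjusted p under 0.05. The 2 genes were the dopamine transporter Slc6a3 (0.226 to 0.893 CPM in CC, 0.347 to 62.9 CPM in SC) and the pseudogene Gm11410 (0 to 0.996 CPM in CC, 0.0416 to 38.1 CPM in SC), both lower in CC with a median in SC of 0.540 and 0.501 CPM. In CS and SS libraries Slc6a3 was at most 1.005 CPM. Their high values came from single SC libraries, and 1 gene was called without NAc-083 and 1 without NAc-113. After 24 h of withdrawal, C24 against S24, edgeR called 0 genes (0%), with 391 (2.31%) at an unadjusted p under 0.05, and DESeq2 called 1. Immediate early genes had a median of -0.09 in CC against SC and 0.03 in C24 against S24, beside 0.31 in CS against SS.

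Across the 6 conditions the mean immediate early gene level, as the log2 difference from the SS mean, was 0.325 ± 0.345 in CS and 0.218 ± 0.156 in CC, 0.305 ± 0.116 in SC and 0 ± 0.265 in SS (SD). It was -0.363 ± 0.187 in C24 and -0.408 ± 0.232 in S24, the mice killed with no injection. The ranges of CS, CC, SC and SS overlapped, and CS had the widest spread of the 6 groups. Interferon-induced genes were at 0.281 ± 0.216 in CS, 0.155 ± 0.138 in CC, 0.096 ± 0.110 in SC, 0.587 ± 0.597 in C24 and 0.032 ± 0.442 in S24. Heat shock genes were at 0.228 ± 0.248 in CS, 0.043 ± 0.237 in CC and -0.160 ± 0.299 in SC, and at -0.732 ± 0.051 in C24 and -0.669 ± 0.150 in S24. Time in withdrawal and the injection cannot be told apart in the comparison with the 24 h groups.

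Apobec1, Mmp28, Fos and Cited2 had smaller fold changes in the other mice. All but Fos were named for their small p in CS against SS, so smaller values elsewhere can follow from that choice alone. Apobec1 had log2 fold changes of 0.78 ± 0.19 in CS against SS, 0.03 ± 0.19 in CC against SC and 0.16 ± 0.16 in C24 against S24. For Mmp28 they were -0.61 ± 0.17, -0.17 ± 0.17 and -0.03 ± 0.14, for Fos 0.74 ± 0.29, 0.07 ± 0.28 and 0.29 ± 0.26, and for Cited2 0.44 ± 0.14, 0.06 ± 0.14 and -0.14 ± 0.12. Of the 12 named genes higher in CS, 9 were also higher in CC and 5 in C24. Of the 12 lower, 7 were also lower in CC and 6 in C24. Over all genes, 57.8% had the same sign in CC against SC and 38.7% in C24 against S24, and over the 461 genes with an unadjusted p under 0.05 these shares were 65.7% and 37.3%. The difference between the CS against SS and CC against SC effects was called for 0 genes in edgeR (503, or 2.97%, at an unadjusted p under 0.05), and that between CS against SS and C24 against S24 also for 0 (609, or 3.6%), with DESeq2 and voom at 0 in both.

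**Figure D5:**
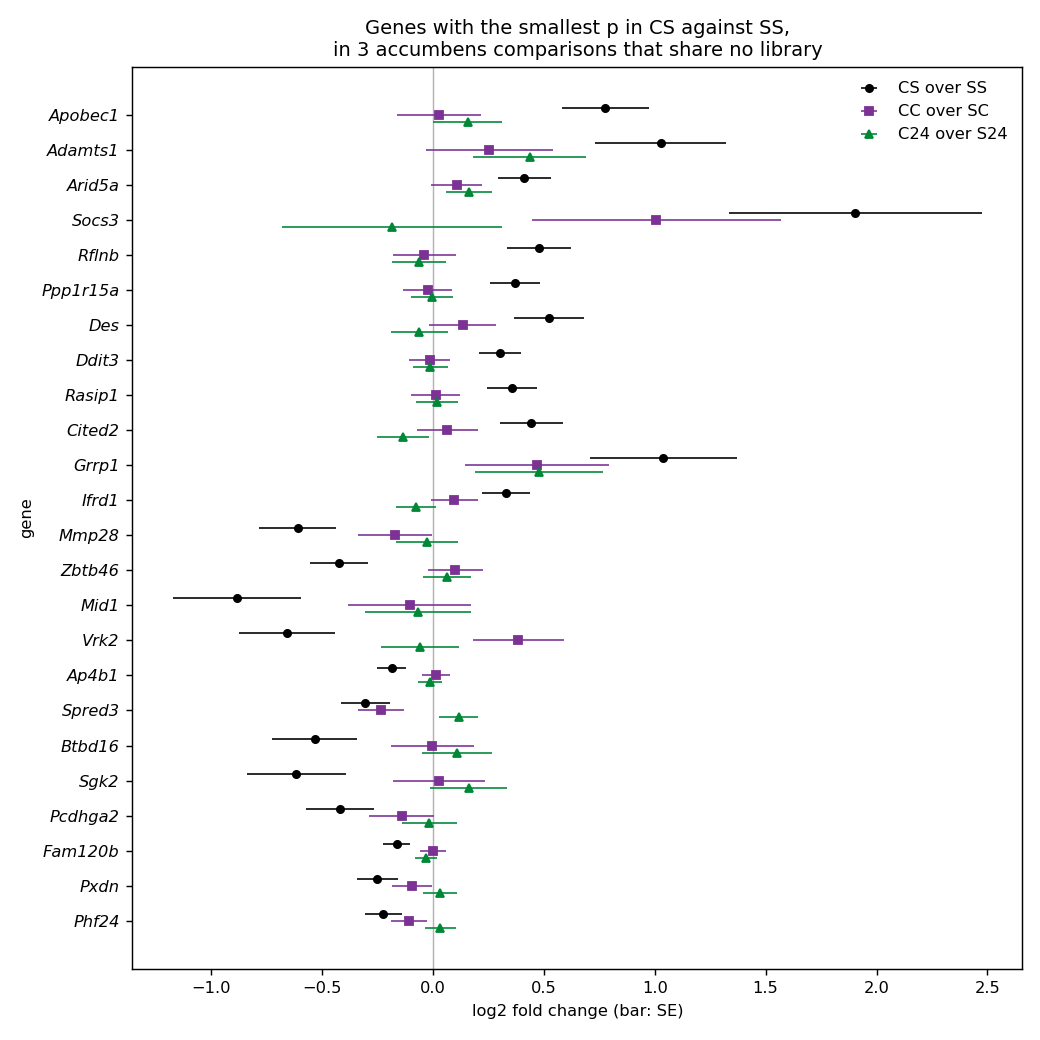
Log2 fold change with its standard error for the 12 genes higher (upper rows) and the 12 lower (lower rows) in CS with the smallest p, in CS over SS (circles), CC over SC (squares) and C24 over S24 (triangles). Apobec1 is at 0.78, 0.03 and 0.16 and Mmp28 at -0.61, -0.17 and -0.03 in these comparisons, which share no library.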

How the data were processed

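Counts per gene were deposited by the authors as a table of whole numbers with no normalization. HTSeq, limma and the mm10 genome are named per the submitters' processing notes. The aligner, the annotation and the strand setting are not given in the sources used here. Per the labels, the molecule is polyA RNA, while the library protocol names a kit that removes ribosomal RNA. Symbols and gene coordinates came from GENCODE M21 (42462 of 43346 identifiers, 98%) and promoters from RefSeq GRCm38.p6. Groups came from the labels, and the members and the 40 gene lists (708 members, 4 without a match: Cyr61, listed as Ccn1, Gpr52, Gbp6 and Lhfpl3) were chosen with earlier results of these data known.

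All 39 accumbens libraries were fitted with edgeR 4.0.16 in R 4.3.3 (filterByExpr, minimum count 10 and total 15, TMM factors, quasi-likelihood test), with the 6 groups as terms and Benjamini-Hochberg adjustment over all tested genes at 0.05. Contrasts gave CS against SS, CC against SC, C24 against S24 and their differences. The accumbens and CPu libraries shared 1 further fit for the region difference. DESeq2 1.42.0, limma 3.58.1 (voom, with and without sample quality weights), 2 surrogate variables from sva 3.50.0, no filter, fits of the 11 libraries alone and fits leaving out libraries were alternatives. The scripts were tested on simulated counts. Pairs of CS and SS libraries differed by more than sampling noise (chi-square per degree of freedom 3.72 to 121 over 55 pairs), so none was a copy of another. Replicates are taken as mice, and p-values of the accumbens contrasts use the spread between mice within all 6 groups, not within CS and SS alone. The fit of the 11 libraries alone gave 294 genes at an unadjusted p under 0.05, against 461. CPM values are scaled by TMM factors, and they are not corrected for gene length.

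The text names the 12 higher and 12 lower protein-coding genes with the smallest unadjusted p and a mean of at least 1 CPM, up to 3 members of each list with an unadjusted p under 0.05, a panel (Fos, Fosb, Arc, Npas4, Bdnf, Drd1, Drd2, Gria1 and Rxra) and, outside these, markers where 1 library stands apart. Other list members are given as examples of their list. Some genes that this rule names are not reported here. Shared sequence is the share of a gene's 50-base stretches that occur in another annotated gene. Sequences from chromosome 18 and genes with no promoter entry, such as Arc, are not shown.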

Additional observations from a re-analysis of the deposited data

Results flagged for a closer look

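In 53 genes named in the text, each group of 5 CS or 6 SS libraries was searched for a library far from the others, judged by the gap to its nearest neighbour as a share of the group's range. Of the 106 groups searched, 15 held such a library. Chance gives about 1 in 20 for genes not chosen by their values, but all of these except a fixed panel were chosen by their p in CS against SS, so the count cannot be read against that rate.

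NAc-151 was the high library of the CS group for Adamts1 (37.7 CPM), Nr4a2 (31.1 CPM), Neurod6 (6.69 CPM), a marker of cortical glutamatergic neurons, and Bdnf (6.88 CPM). NAc-014 was the high CS library for Ndufa4 (310 CPM) and the low one for Pcdhga2 (5.55 CPM). In the SS group, NAc-073 was the high library for Socs3 (2.68 CPM), Grrp1 (3.94 CPM), Steap4 (3.67 CPM), Lcn2 (31.3 CPM) and Hspa1a (6.77 CPM), the genes in which NAc-111 and NAc-151 were also high in the CS group. NAc-122 was the high SS library for Mid1 (60.2 CPM) and Vrk2 (1.73 CPM), and NAc-162 for Reln (156 CPM) and Nr4a2 (4.62 CPM).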

How the results depend on the processing

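The count of 0 genes in CS against SS was 0 under all alternatives run, with 294 genes at an unadjusted p under 0.05 in a fit of the 11 libraries alone, 461 with 2 surrogate variables, 810 with sample quality weights and 913 with no filter. Leaving out 1 library gave 0 calls each time, and between 358 and 1174 genes then had an unadjusted p under 0.05. Without NAc-111 and NAc-151 the values were 0 and 815, and without these and NAc-014 they were 0 and 123, both chosen after seeing the data. The difference between accumbens and CPu was called for 0 genes with and without the mouse as a replicate block. No mouse is in both CS and SS, so no pairing bears on that comparison. CC against SC gave 1 call in DESeq2, 0 in voom, 0 with no filter, 0 without the libraries with over 1 CPM of Gm20594 (chosen after seeing the data) and 1 to 2 with 1 SC library left out. C24 against S24 gave 1 call in DESeq2. Of 1060 recomputed log2 fold changes of the 53 named genes, 22 changed sign and 141 kept it but moved by over 1.5 times. Of 800 recomputed medians of the 40 lists, 121 changed sign and 263 kept it but moved by over 1.5 times. For immediate early genes the median was 0.115 without NAc-151 and NAc-014 and 0.0951 without NAc-014, NAc-111 and NAc-151, with 0 members at an unadjusted p under 0.05 in either.

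Without NAc-014, NAc-111 and NAc-151 the log2 fold changes that changed sign were those of Hspa1a (-0.0164), Hspa1b (-0.109), Hspe1 (-0.0221), Mt2 (-0.133), Ndufa4 (-0.0217), Drd1 (-0.03) and Gria1 (0.00344). Without NAc-111 and NAc-151 they were those of Hspa1b (-0.0978) and Steap4 (-0.0181). Without NAc-151 and NAc-014 they were those of Ndufa4 (-0.0401) and Drd1 (-0.0677). Drd1 was at -0.103 with sample quality weights and at -0.0938 with 2 surrogate variables. With 1 library left out, Drd1 ran from -0.106 to 0.0789 and Drd2 from -0.172 to 0.0254. The blood marker median was 0.028 without NAc-014, NAc-111 and NAc-151. The cause was not tested beyond leaving out these libraries. The median standard error of 0.134 limits what could be called.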

Other observations

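Gm20594 was over 1 CPM in 2 of the 5 SC libraries (2.14 and 1.64 CPM) and in 0 of the CS and SS libraries. The lowest adjusted p that Apobec1 reached under the alternatives run was 0.458, with sample quality weights.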
